A study of Mus musculus with 9 samples.

Results

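The genes described here carry bone morphogenetic protein (BMP) signals from the cell surface to the nucleus, or dampen them. They are the type I receptors Bmpr1a, Bmpr1b and Acvr1, the type II receptor Bmpr2, the receptor-regulated SMADs Smad1, Smad5 and Smad9, the inhibitory SMADs Smad6 and Smad7, and the pseudoreceptor Bambi. These 10 genes were taken by name from a count table of 25860 genes. RNA sequencing was done on cultured cells of the calvaria (skull vault) of newborn mice, in 5 libraries labelled IRE1KO and 4 labelled WT. Cells of both groups are described as Osx1-Cre cells obtained by flow sorting: in this transgene the osterix (Sp7) promoter, active in the osteoblast lineage, drives Cre recombinase. IRE1, the product of Ern1, senses stress in the endoplasmic reticulum and splices Xbp1 mRNA. The IRE1KO group is labelled as lacking IRE1 and the WT group as wild type; the sources used here do not give the allele, the strain or the sex of the pups. In each group 1 library came from the pooled cells of 3 to 5 pups aged 2 to 4 days, cultured with 10% serum to 90% confluence with no added treatment named.

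A BMP dimer brings type I and type II receptors together, the type II receptor phosphorylates the type I receptor, and the type I receptor then phosphorylates SMAD1, SMAD5 and SMAD9. These bind SMAD4, enter the nucleus and activate targets such as the Id genes. Among the targets are Smad6, Smad7 and Bambi, whose products block the pathway at the receptors or at the SMADs, so that their transcripts are commonly read as feedback. In calvaria the pathway is known for driving osteoblast differentiation.

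Libraries held 18784636 to 22028075 counts, and levels are given as CPM, the count scaled to library size after TMM, edgeR's correction for library composition. The cells expressed Runx2 at 67.9 and 66.9 CPM and Sp7 at 18.6 and 19.0 CPM on average in IRE1KO and WT. Bglap (osteocalcin), a product of mature osteoblasts, averaged 0.10 and 0.039 CPM, under the level of 3 counts. Its highest library, IRE1KO library 5, was above that level, at 0.192 CPM against 0.142 CPM. Ern1, on chromosome 11, was at 53.1 ± 2.33 CPM in IRE1KO (SD, n = 5) and 47.2 ± 5.68 CPM in WT (SD, n = 4), and a total per gene does not check the label, since it does not show which exons were read. Pairs of IRE1KO libraries varied 1.99 to 10.6 times as much as sampling noise, and pairs of WT libraries 16.5 to 120.7 times. Within WT, pairs with library 4 varied most, at 48.1 to 120.7 times sampling noise, against 16.5 to 39.4 times for the other WT pairs. WT libraries 1 and 4 were the lowest and highest WT values, in either order, for 42.6% of the 13712 tested genes. In these bulk cultures, fewer cells of a type and less RNA per cell cannot be told apart.

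None of the 10 members passed an adjusted p of 0.05 between IRE1KO and WT, against 0.634% of all tested genes (87 of 13712; quasi-likelihood test of edgeR, Benjamini-Hochberg adjusted). All 10 passed the filter on low counts. Members at an unadjusted p under 0.05 in the same edgeR test were 4 of 10, namely Bambi, Smad9, Bmpr1b and Smad6, against 16.5% of tested genes. The members' median log2 fold change, IRE1KO over WT, was -0.076, against -0.005 over all tested genes. DESeq2 called Bambi alone among the members and 3.77% of the genes it tested, and limma voom called none of the members and 0.117% of genes.

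**Figure D1:**
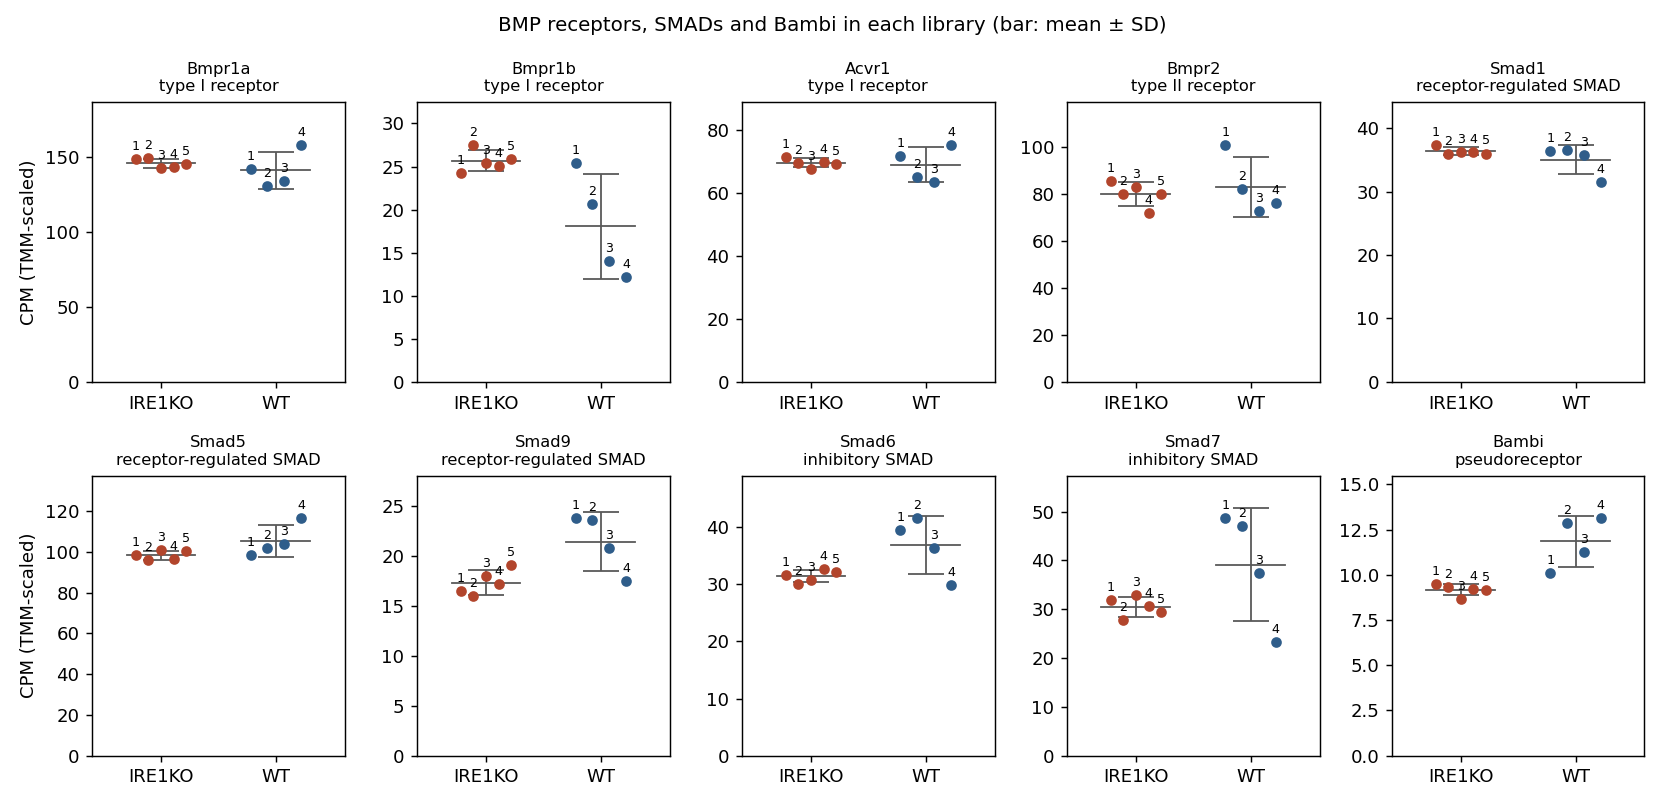
CPM (TMM-scaled) of each member in the 5 IRE1KO and the 4 WT libraries; each point is 1 library with its replicate number, and bars show mean ± SD. Bambi separated the groups, at 8.66 to 9.46 CPM in IRE1KO and 10.1 to 13.1 CPM in WT, whereas Smad6, Smad7 and Smad9 in WT library 4 lay within or below the IRE1KO values.

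The type I receptor Bmpr1a, a widely expressed receptor for BMP2 and BMP4, was at 148.8, 149.5, 142.8, 143.2 and 145.5 CPM in IRE1KO libraries 1 to 5, against 141.9, 130.5, 134.2 and 158.4 CPM in WT libraries 1 to 4. The IRE1KO values lay inside the WT range. Its log2 fold change of 0.048 ± 0.056 SE had a 95% interval of -0.078 to 0.17 (edgeR, adjusted p = 0.705). Acvr1 (ALK2), the receptor whose activating mutation causes fibrodysplasia ossificans progressiva in humans, was at 67.5 to 71.4 CPM in IRE1KO and 63.5 to 75.3 CPM in WT, with a log2 fold change of 0.014 and an interval of -0.11 to 0.13 (edgeR, adjusted p = 0.924). For both receptors the interval excludes a change of the size measured for Id1 below.

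Bmpr1b, a type I receptor known for its role in cartilage condensations of the limb, was at 24.3, 27.5, 25.4, 25.1 and 25.9 CPM in IRE1KO, against 25.4, 20.6, 14.0 and 12.2 CPM in WT. IRE1KO libraries were nearly level, 3 of the 4 WT libraries were below all of them, and WT library 1 was within their range. The log2 fold change was 0.51 ± 0.191 SE with an interval of 0.075 to 0.94 (edgeR, adjusted p = 0.236). Without WT library 1 it was 0.72 with an adjusted p of 0.03 in edgeR, in a fit that called 8.63% of genes. It was 0.36 with an adjusted p of 0.246 in edgeR when WT library 4 was omitted instead. WT library 1 held the highest WT value of Bmpr1b, so its omission widens the difference by construction. WT library 4 held the lowest, so its omission narrows the difference in the same way.

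Bmpr2, the type II receptor, was at 85.4, 80.0, 83.0, 72.0 and 80.0 CPM in IRE1KO, against 101.1, 82.0, 72.9 and 76.1 CPM in WT. The groups overlapped, and WT library 1 alone lay outside the IRE1KO range. The log2 fold change was -0.053 ± 0.094 SE with an interval of -0.27 to 0.16 (edgeR, adjusted p = 0.817), and without WT library 1 it was 0.056.

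Of the receptor-regulated SMADs, Smad1 was the steadiest member in IRE1KO, at 36.0 to 37.4 CPM, against 36.4, 36.5, 35.7 and 31.6 CPM in WT, where library 4 was the low one. Its log2 fold change was 0.053 with an interval of -0.058 to 0.16 (edgeR, adjusted p = 0.627). Smad5, its close relative, was at 98.6, 95.8, 100.8, 96.4 and 100.3 CPM in IRE1KO, against 98.5, 102.1, 104.1 and 116.5 CPM in WT. WT library 4 was the highest for Smad5 and the lowest for Smad1. Smad5 had a log2 fold change of -0.099 with an interval of -0.21 to 0.014 (edgeR, adjusted p = 0.356).

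Smad9, whose product is also called SMAD8, was at 16.4, 16.0, 17.9, 17.2 and 19.0 CPM in IRE1KO, against 23.7, 23.6, 20.8 and 17.5 CPM in WT. WT libraries 1 to 3 were above all IRE1KO libraries, and WT library 4 was among them. This gave a log2 fold change of -0.31 ± 0.096 SE with an interval of -0.52 to -0.089 (edgeR, adjusted p = 0.184).

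The inhibitory SMADs showed a similar arrangement of libraries. Smad6, which acts mainly on the BMP branch, was at 31.6, 30.1, 30.8, 32.6 and 32.2 CPM in IRE1KO, against 39.5, 41.6, 36.4 and 29.9 CPM in WT. Smad7, which blocks both the BMP and the TGF-beta branch, was at 31.8, 27.7, 32.8, 30.7 and 29.3 CPM in IRE1KO, against 48.6, 47.0, 37.4 and 23.4 CPM in WT. For each of them 3 WT libraries were above all IRE1KO libraries and WT library 4 was below all of them. The log2 fold change was -0.23 ± 0.086 SE for Smad6, with an interval of -0.42 to -0.035 (edgeR, adjusted p = 0.235). For Smad7 it was -0.36 ± 0.185 SE, with an interval of -0.78 to 0.056 (edgeR, adjusted p = 0.362).

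Without WT library 4, Smad6, Smad7 and Smad9 were lower in IRE1KO at adjusted p-values of 0.0201, 0.0201 and 0.0286 in edgeR, with log2 fold changes of -0.32, -0.54 and -0.39. That fit called 2.9% of genes in either direction and 1.8% as lower in IRE1KO. WT library 4 held the lowest WT value of each of these SMADs, so leaving it out widens their difference by construction. Leaving out any other library kept them over the threshold in edgeR. Their adjusted p-values in those edgeR fits were 0.207 to 0.417 for Smad6, 0.442 to 0.539 for Smad7 and 0.139 to 0.349 for Smad9. Without WT library 4 the groups did not overlap for 5 of the 10 members (Bmpr1a, Smad9, Smad6, Smad7 and Bambi), against 13.2% of tested genes, and without WT library 1 for 3 (Bmpr1b, Smad5 and Bambi), against 20.6%. WT library 4 also differed in the summed level of osteoblast lineage markers, of which none of 7 tested passed between the groups. The sum was 37590.6 to 41873.4 CPM in IRE1KO, against 56295.4 CPM in WT library 4 and 26370.7 to 31556.2 CPM in the other WT libraries. In WT library 4 its largest parts were the collagens Col1a1 (31100.3 CPM) and Col1a2 (21527.2 CPM). Each tested marker but Sp7 was highest among the WT libraries there. Sp7 was at 16.5 CPM, within the other WT values of 13.6 to 24.6 CPM. The part of these markers in the SMAD values was not tested.

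Bambi, which resembles a type I receptor but lacks the kinase domain, was at 9.46, 9.32, 8.66, 9.21 and 9.16 CPM in IRE1KO, against 10.1, 12.9, 11.3 and 13.1 CPM in WT. It was the sole member whose groups did not overlap, which held for 6.93% of tested genes. Its log2 fold change was -0.37 ± 0.086 SE, with an interval of -0.56 to -0.18 (edgeR, adjusted p = 0.0908). The call depended on the libraries and the tool: the adjusted p was 0.0133 without WT library 1 in edgeR and 0.0215 in DESeq2. Those fits called 8.63% and 3.77% of genes. WT library 1 held the lowest WT value of Bambi, so leaving it out widens the difference by construction. All other fits left Bambi over the threshold, at adjusted p-values of 0.0811 to 0.345 in edgeR and 0.12 in limma voom. Its counts were low, from 163 to 251 per library. By Pearson's correlation of log2 CPM over the 9 libraries, the genes most like Bambi among 10515 were Fnta, a subunit of protein farnesyltransferase (r = 0.98, Spearman's rho = 0.967), Lmcd1, a LIM-domain protein (r = 0.969, rho = 0.883), and Pink1, a mitochondrial kinase (r = 0.961, rho = 0.833). Without the pair of libraries farthest from Bambi's median, r was 0.946, 0.869 and 0.935. These values contain the difference between the groups, describe these libraries and carry no p.

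Markers of other cell types that the sorted cultures could hold were summed by list. Summed adipocyte markers were at 56.4 to 63.9 CPM in IRE1KO and 81.6 to 142.3 CPM in WT, and 3 of the 5 tested fell. Summed glial and pigment cell markers were at 22.7 to 27.9 CPM in IRE1KO and 27.9 to 75.6 CPM in WT, and none of 6 tested passed. All 6 had a negative log2 fold change, IRE1KO over WT, with a median of -2.12. Of these, 5 had an unadjusted p under 0.05 in edgeR, against 16.5% of tested genes. Summed chondrocyte markers were at 709.4 CPM in IRE1KO library 2 and 1251.2 to 1401.6 CPM in the other IRE1KO libraries, against 1357.0 to 1424.3 CPM in WT, and none of 6 tested passed. Of 4 tested endothelial markers 1 fell, Pecam1, and the list's sums overlapped at 7.6 to 11.5 CPM in IRE1KO and 8.42 to 20.7 CPM in WT. None of 6 tested macrophage and osteoclast markers passed (287.8 to 427.6 CPM in IRE1KO and 189.3 to 396.6 CPM in WT), and none of 2 tested skeletal muscle markers (59.0 to 72.2 CPM in IRE1KO and 39.8 to 110.3 CPM in WT). In the adipocyte and glial lists WT library 1, which held the lowest WT value of Bambi and the highest WT value of Bmpr1b, was the lowest WT library. None of the markers of these lists was at 0 in every library, and their part in the values of Bambi and Bmpr1b was not tested. The flow sort was for Osx1-Cre cells, and these counts do not measure how pure the sorted cells were.

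**Figure D2:**
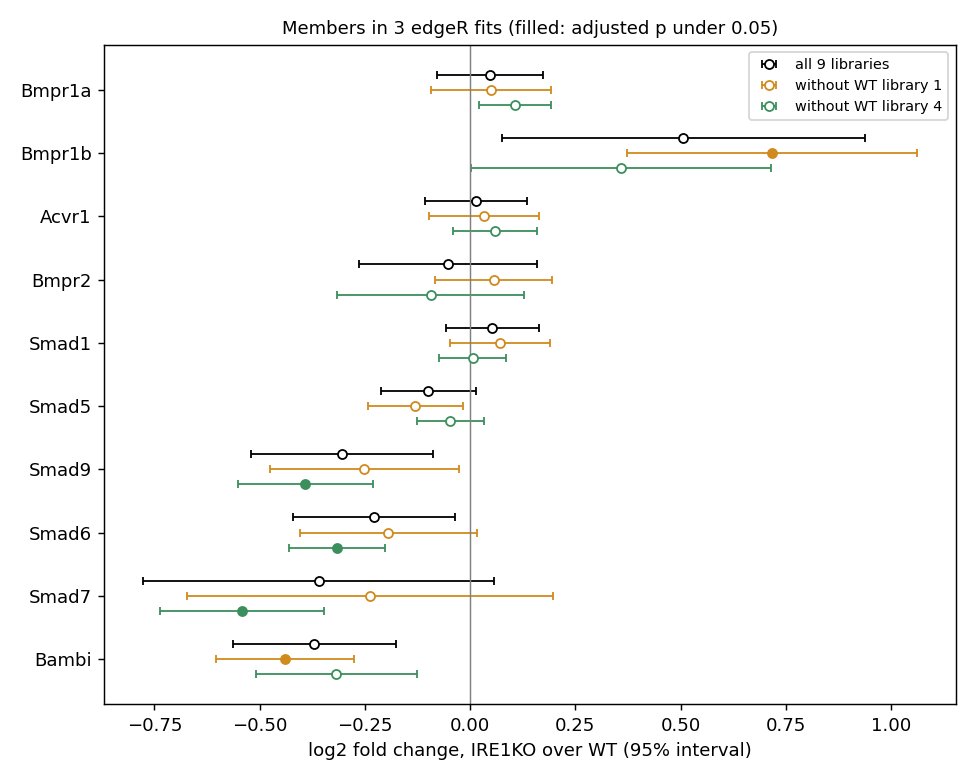
Log2 fold change of each member, IRE1KO over WT, with its 95% interval in 3 edgeR fits: all 9 libraries (black), without WT library 1 (orange) and without WT library 4 (green); filled points passed an adjusted p of 0.05. No member passed with all 9 libraries, Bmpr1b and Bambi passed without WT library 1, and Smad9, Smad6 and Smad7 passed without WT library 4.

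The spread between libraries differed by group for every member. The coefficient of variation (CV, the SD as a percent of the mean) was larger in WT than in IRE1KO for 10 of 10 members, and for 82.6% of tested genes. Bmpr1b had a CV of 4.76% in IRE1KO and 33.8% in WT, and Smad7 of 6.64% in IRE1KO and 29.7% in WT, which were the largest WT values. WT libraries 1 and 4 were the lowest and highest WT values for 5 members (Bmpr1b, Smad5, Smad9, Smad7 and Bambi), near the 42.6% of tested genes given above.

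To set members beside each other, CPM was divided by the length of each gene's merged exons, in kilobases (kb). Bmpr1a was the highest at 20.5 to 24.9 CPM per kb over the 9 libraries, followed by Acvr1 at 13.1 to 15.6 and Smad5 at 12.9 to 15.7 CPM per kb, whose ranges overlapped. Smad6 (9.33 to 13.0 CPM per kb), Smad7 (5.17 to 10.8) and Smad1 (5.04 to 5.98) came next, and the ranges of neighbours overlapped here too. Bmpr2 (4.0 to 5.62 CPM per kb), Bmpr1b (2.04 to 4.62) and Smad9 (2.98 to 4.42) overlapped one another, and Bambi was the lowest on average at 1.71 to 2.59 CPM per kb. The merged exons of Bmpr2 spanned 17.98 kb, against 3.21 to 7.42 kb for the other members. Untranslated exons that these cells may not use would lower its value.

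**Figure D3:**
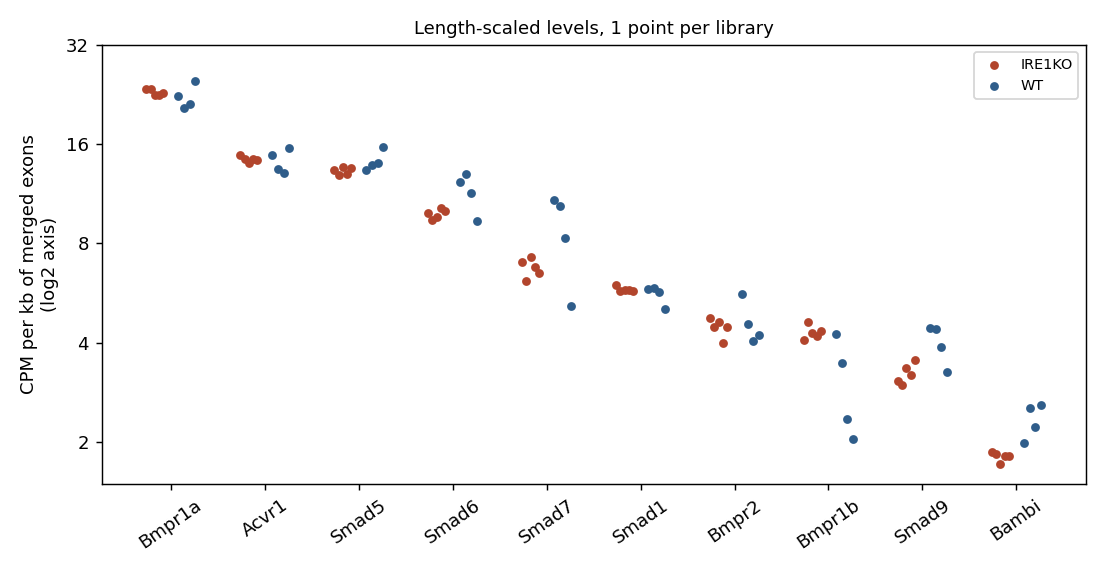
CPM per kb of merged exons, on a log2 axis, for each member in descending order of its mean; each point is 1 library, IRE1KO left of WT. Bmpr1a was at 20.5 to 24.9 and Bambi at 1.71 to 2.59 CPM per kb.

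On the same length-scaled values, Bmpr1b made up 10.3 ± 0.454% of the type I receptor transcripts in IRE1KO (SD, n = 5) and 7.68 ± 2.52% in WT (SD, n = 4), where libraries 1 to 4 were at 10.3, 9.24, 6.41 and 4.8%. Smad6 and Smad7 together made up 41.7 to 43.6% of the 5 SMADs described here in IRE1KO, against 49.5, 49.3, 45.4 and 37.7% in WT. Smad9 made up 14.5 ± 0.757% of the receptor-regulated SMADs in IRE1KO (SD, n = 5) and 16.8 ± 2.38% in WT (SD, n = 4). For each of these shares WT library 4 was the lowest WT library. The shares are given as a description, with no test.

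**Figure D4:**
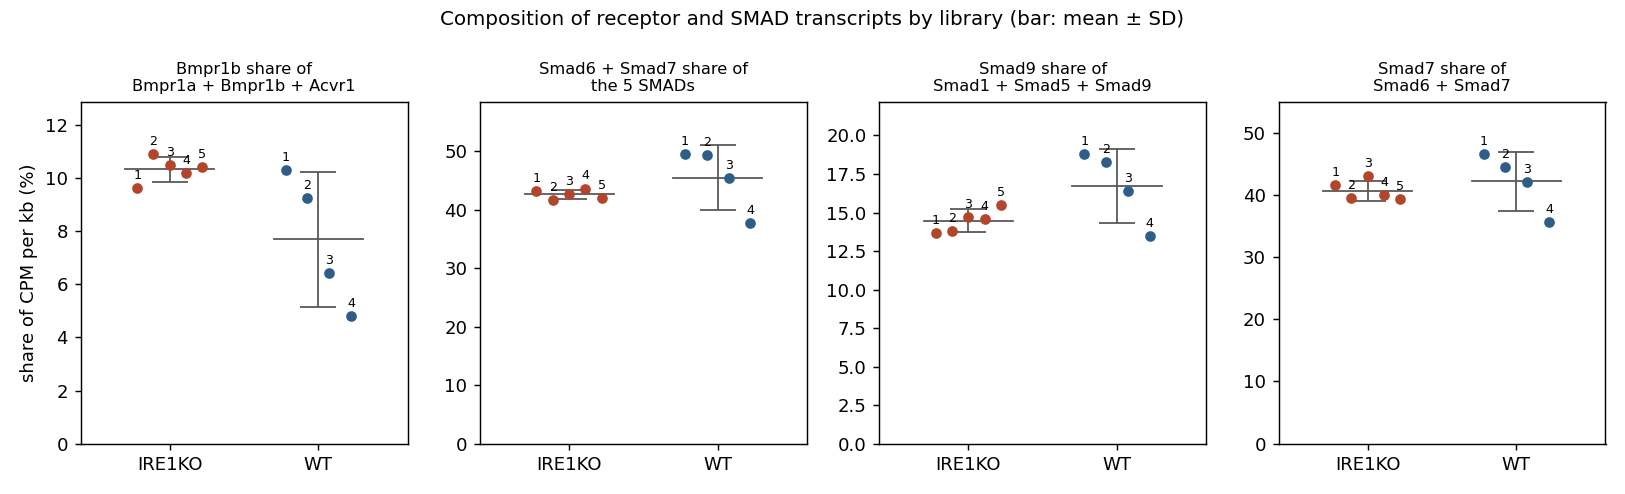
Shares of length-scaled transcripts (%) in each library, for Bmpr1b among the type I receptors, the inhibitory SMADs among the 5 SMADs, Smad9 among the receptor-regulated SMADs and Smad7 among the inhibitory SMADs; bars show mean ± SD. The inhibitory SMADs were at 41.7 to 43.6% in IRE1KO and spanned 37.7 to 49.5% in WT.

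Around the members, the rest of the pathway was tested from lists in the same edgeR fit. None of 8 tested BMP receptors other than the members, with co-receptors and the common SMAD, passed (median log2 fold change 0.047). Acvrl1 (ALK1), a type I receptor best known from endothelium, was at 0.18 ± 0.074 SE on the log2 fold change scale (edgeR, adjusted p = 0.271). The type II receptor Acvr2b was at 0.40 ± 0.239 SE (edgeR, adjusted p = 0.436). Its levels were low and overlapped, at 0.582 to 1.15 CPM in IRE1KO and 0.613 to 0.77 CPM in WT. None of 5 genes of the TGF-beta and activin branch passed (median 0.071), with Smad2 at 0.071 and Smad3 at 0.085 on the log2 scale. None of 19 SMAD regulators passed (median 0.033), with the ubiquitin ligase Nedd4l at 0.23 ± 0.087 SE and the co-repressor Ski at -0.077 ± 0.036 SE.

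Among 12 tested genes of the BMP ligand list, which includes the procollagen protease Bmp1, 1 rose and none fell (median -0.17). That was Gdf6, a BMP-family ligand known for joint and skull formation, at 14.4 to 18.1 CPM in IRE1KO and 5.13 to 9.36 CPM in WT (log2 fold change 1.16 ± 0.172 SE, edgeR, adjusted p = 0.0416). Among 15 tested extracellular modulators 1 rose and none fell (median -0.12). That was Bmper, a secreted BMP-binding protein, at 101.4 to 128.3 CPM in IRE1KO and 75.1 to 88.6 CPM in WT (log2 fold change 0.51 ± 0.083 SE, edgeR, adjusted p = 0.0452).

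Among 13 tested BMP targets other than Smad6, Smad7 and Bambi, 1 fell and none rose (median -0.23). That was Id1, an inhibitor of helix-loop-helix factors, at 18.3, 20.5, 20.1, 19.1 and 19.8 CPM in IRE1KO, against 29.9, 31.6, 31.5 and 37.3 CPM in WT. Every WT library was above every IRE1KO library, and the log2 fold change was -0.73 ± 0.068 SE with an interval of -0.89 to -0.58 (edgeR, adjusted p = 0.00928). Id1 was highest in WT library 4, where Smad6, Smad7 and Smad9 were lowest among the WT libraries. Id3, named after its values were seen, was likewise highest there, at 110.6 to 123.3 CPM in IRE1KO, against 133.7, 147.1, 163.2 and 195.5 CPM in WT (edgeR, adjusted p = 0.0696). The other tested targets went both ways in WT library 4. Among the WT libraries, Id2, Id4, Dlx5, Hey1, Atoh8 and Runx2 were highest there. Hes1, Msx1 and Msx2 were lowest there, and Sp7 and Junb were neither. Leaving out any 1 library kept Id1 under the threshold, while 7 of the 9 such fits lost Gdf6 and 7 lost Bmper. With all libraries Bmper was also lost under upper-quartile scaling (edgeR, adjusted p = 0.0516) and in limma voom (adjusted p = 0.0558).

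**Figure D5:**
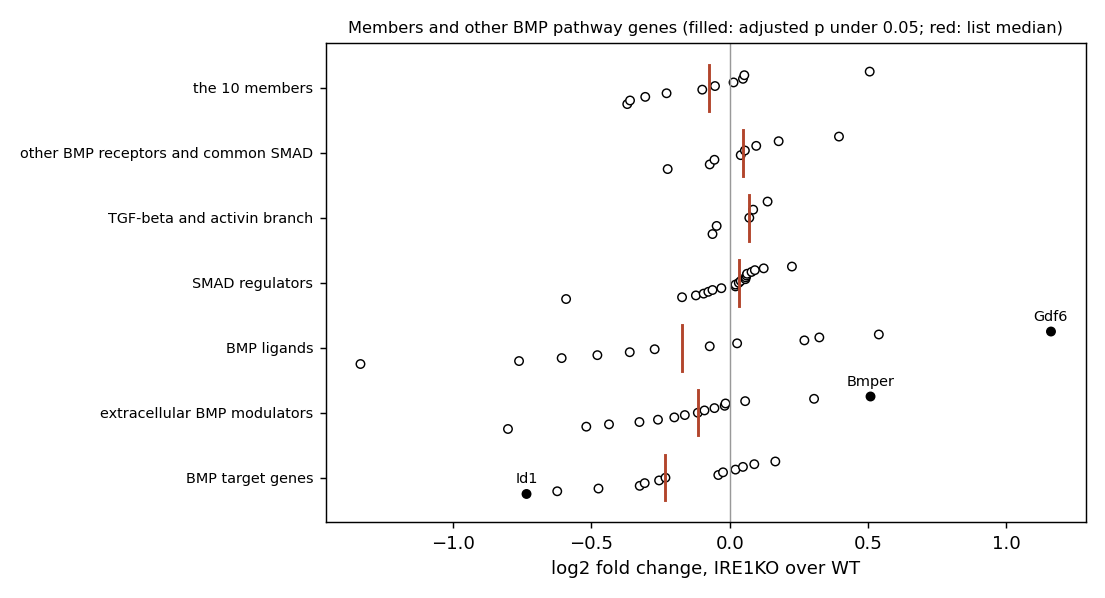
Log2 fold change, IRE1KO over WT, of the 10 members and of the other tested pathway genes by list; filled points passed an adjusted p of 0.05 and red lines are list medians. Gdf6 and Bmper were higher and Id1 lower in IRE1KO, and the members' median was -0.076.

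The members lie on chromosomes 1, 2, 3, 8, 9, 13, 14 and 18, and none lies on chromosome 11 with Ern1. Smad6 spans 63953076 to 64022059 on chromosome 9 (minus strand, GRCm38) and Smad9 54755582 to 54801257 on chromosome 3 (plus strand). These are shown by sequence because they had a similar arrangement of libraries and each has 1 listed start. The windows are the 250 bases before the start, 5′ to 3′, from RefSeq on GRCm38.p6, at chr9:64022060-64022309 for Smad6 and chr3:54755332-54755581 for Smad9. Capitals mark matches on either strand to GGCGCC, a palindrome bound by BMP SMADs, to CAGAC, a SMAD-binding half-site, and to ACGTG, a core found in sites of XBP1 and of many other factors.
Smad6: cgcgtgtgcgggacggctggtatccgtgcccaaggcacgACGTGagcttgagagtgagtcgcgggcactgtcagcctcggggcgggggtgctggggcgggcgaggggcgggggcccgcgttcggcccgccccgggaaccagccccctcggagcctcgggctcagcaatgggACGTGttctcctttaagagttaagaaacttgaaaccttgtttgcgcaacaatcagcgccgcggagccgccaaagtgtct
Smad9: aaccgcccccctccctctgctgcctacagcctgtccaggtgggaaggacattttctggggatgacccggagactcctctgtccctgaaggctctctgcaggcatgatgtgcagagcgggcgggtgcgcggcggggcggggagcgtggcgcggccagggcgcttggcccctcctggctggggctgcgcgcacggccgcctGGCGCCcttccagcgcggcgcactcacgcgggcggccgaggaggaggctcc
The Smad9 window held 1 match to GGCGCC, and the Smad6 window held 2 matches to ACGTG and none to the others. Of the 8 members with a window that was searched, 4 had GGCGCC in at least 1 window (Bmpr1a, Bmpr2, Smad5 and Smad9), 2 had CAGAC (Bmpr1b and Smad5) and 1 had ACGTG. Of all 32851 windows of this length, 9.6% held GGCGCC, 42.2% CAGAC and 16.6% ACGTG. The members' windows were 46.8 to 85.6% G and C, against a median of 52.4% over all windows, and a gene with several starts has several chances of a match.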

How the data were processed

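Directional libraries of poly(A) RNA were all prepared and sequenced (NextSeq) in 1 batch, per the labels' protocols. The authors deposited unnormalized counts per gene. Per the submitters' processing notes, STAR, limma and mm10 were used, with no version or role stated; the sources used here do not name the counting program, annotation or strand setting. The exons of Bmpr1a overlap an antisense gene over 4.6% of their length, with a mean of 4.0 counts. Lengths and positions were taken from GENCODE M21 (GRCm38, equivalent to mm10).

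Counts were fitted in R 4.3.3 with edgeR 4.0.16 (filterByExpr, TMM, robust quasi-likelihood, genotype as the sole term), limma 3.58.1 and DESeq2 1.42.0, and p-values were adjusted by Benjamini-Hochberg over the genes that each fit tested (13712 in edgeR with all libraries, 13780 without WT library 4, 13820 without WT library 1, and 15439 in DESeq2). Log2 fold changes are IRE1KO over WT. Tables and figures were made in Python 3.11.15 with pandas 2.3.3 and matplotlib 3.10.9. The fit was checked on simulated counts with the same spread in both groups, so that check does not cover the unequal spread of these libraries. A count of 3 corresponds to 0.136 to 0.16 CPM, and covers counting error only. No pair of libraries within a group agreed within sampling noise. The labels call each pool a biological replicate.

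The members and lists were chosen with earlier results of these data known. Named beside the members were Id1 and, per list, genes that passed or otherwise the 2 with the smallest p, and the 3 genes most like the member with the smallest p whose mean was 5 CPM or more. Promoter motifs were chosen after the values were seen. Of the list genes, Tob2 was not found under its symbol in the table. Alternatives covered the scaling, the filter, the test, leaving out each library, and the replicate number as a block.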

Additional observations from a re-analysis of the deposited data

Results flagged for a closer look

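Smad1 had a library flagged in both groups by Dixon's test, which sets the gap to the nearest library against the group's range. A flag does not mean a large difference in level where that range is narrow, as it was in IRE1KO. In IRE1KO, library 1 was at 37.4 CPM and the other 4 at 36.0 to 36.3 CPM, a gap of 0.798 of the group's range. In WT, library 4 was at 31.6 CPM and the other 3 at 35.7 to 36.5 CPM, a gap of 0.835 of the range. These were 2 of 38 groups of values examined, and chance flags about 1 in 20.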

How the results depend on the processing

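The counts of calls depended on the processing more than the members' directions did. With 87 genes called over the whole table, the count was 46 under upper-quartile scaling, 45 without the filter on low counts, 582 in DESeq2 and 16 in limma voom, and 2 to 1192 when 1 library was left out. Of the members, 1 was called in DESeq2 and 0 to 3 when 1 library was left out. Of the other pathway genes, 3 were called with all libraries, 8 in DESeq2, 2 each under upper-quartile scaling and in limma voom (which lost Bmper), and 1 to 9 when 1 library was left out. With the replicate number as a block, over 8 libraries, 0 genes of the table and 0 pathway genes were called in edgeR. In that edgeR fit 1594 genes had an unadjusted p under 0.05, and Id1 had an adjusted p of 0.126. Deviations of same-numbered libraries correlated at -0.301 to 0.551 over 4 pairs, 2 of them over 0.1. Of IRE1KO libraries 1 to 4, 2 correlated best with their own number. So few pairs cannot decide whether the numbers pair the libraries. The log2 fold change of Acvr1 turned negative without WT library 2 or 3 (-0.015 and -0.022, range -0.022 to 0.06 over the 9 omissions), and that of Bmpr2 positive without WT library 1 (0.056, range -0.11 to 0.056); the cause was not tested. The other 8 members kept their sign under all 15 alternatives. With 4 WT libraries that differ widely, the members' intervals are wide for Bmpr1b and Smad7.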
